A study of Mus musculus with 8 samples.

Results

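The loci of Epcam and Cdh1 were followed through mouse reprogramming by the peaks of 5-hydroxymethylcytosine (5hmC) called in them. Epcam encodes the epithelial cell adhesion molecule and Cdh1 encodes E-cadherin, the calcium-dependent adhesion protein of epithelial junctions. Members were all peaks that overlapped a window of 25 kb at Epcam (chr17:88030000-88055000) or of 85 kb at Cdh1 (chr8:109115000-109200000), both set in the mouse build mm9. They numbered 49 of the 684512 peaks in the 8 lists, 19 at Epcam and 30 at Cdh1. The rule used no measured value.

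The series profiled 5hmC by glucosylation, biotin tagging and capture of sonicated genomic DNA, with 1 library in each of 8 groups. Intermediates made with OySyNyK were sampled at D1, D3 and D5 (D is read as day), as were intermediates made with OSNK. OSNK is known as the set Oct4, Sox2, Nanog and Klf4, and in OySyNyK all but Klf4 carry a YAP transactivation domain. The end state was 1 library of induced pluripotent stem cells (iPSC), whose title names the OySyNyK factors, and the starting state was 1 library of mouse embryonic fibroblasts (MEF). Per the labels' protocols, the fibroblasts were OG2-MEFs, vitamin C and LIF were added for iPSC generation, and iPSC were kept on mitomycin-treated MEF feeders. The effect of the factors and that of the medium therefore cannot be told apart against MEF, and DNA of feeders may be in the iPSC library. The study asked how 5hmC progresses under each method.

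5hmC is made from 5-methylcytosine by the TET enzymes and marks active gene bodies, enhancers and sites on their way to demethylation. Fibroblasts are mesenchymal and keep epithelial adhesion genes silent. An early step of reprogramming is the mesenchymal to epithelial transition, in which Cdh1 and Epcam are switched on and repressors such as Snail and Zeb are lost. Both repressor families read E-box letters, CACCTG or its reverse complement CAGGTG, and the Cdh1 promoter is a well known target.

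The Epcam promoter is shown for these E-box letters. The RefSeq sequence gives the 250 bases before the gene's start in GRCm38.p6, chr17:87635729-87635978 on the plus strand, with matches to CACCTG or CAGGTG in capitals.
Epcam promoter: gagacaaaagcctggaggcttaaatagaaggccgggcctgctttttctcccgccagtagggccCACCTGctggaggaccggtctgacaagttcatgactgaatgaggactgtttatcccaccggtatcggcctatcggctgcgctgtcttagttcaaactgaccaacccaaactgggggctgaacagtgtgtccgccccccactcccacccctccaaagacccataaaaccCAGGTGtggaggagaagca
The promoter held 2 such matches, the first 187 bases and the second 19 bases before the start. Of 32851 promoter entries of the same length, 17.2% held at least 1 match on either strand and 2.06% held at least 2. Both matches also fit the wider E-box letters CANNTG, which 66.2% of promoters held. The promoter had 8 CG pairs, against a median of 6 over all entries. A match is a description of letters and not of binding. The peak lists are in another build, so no peak was placed relative to this promoter. The Cdh1 promoter sequence is not shown, since the promoter entries used held none for Cdh1.

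Each list gives a peak's position and the authors' score, which in MACS comes from the peak's p-value and is higher where that p is lower. The lists held 54938 to 116302 peaks with median scores of 71.0 to 105. Only peaks with a score of at least 50 are listed, so an absent peak is not absent 5hmC. Depth is unknown, no group has a replicate, and no p-value is given. Gene parts were not assigned because no mm9 annotation was used here. RefSeq's Epcam spans 15149 bp in GRCm38, and 19447 bp lay between the outermost Epcam regions, so at least 1 of them would lie outside a gene of that length.

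Epcam had 5 peaks in iPSC and none in MEF. The iPSC peaks covered 3.88 kb or 15.5% of the window, against no base in MEF. Over all tiles of 25 kb with a peak in iPSC or MEF, 28.5% had at least 2 times more cover in iPSC. In iPSC, 96.9% of the 60734 tiles of 25 kb that held a peak in any library had less cover than the Epcam window. The mean tile was covered to 2.71% in iPSC and to 4.15% in MEF. A MEF peak lay in 57.4% of these tiles, so a window without one is not rare. The sequence around the window was not empty in MEF. Within 100 kb before it, iPSC had 8 peaks and MEF had 5, and within 100 kb after it, iPSC had 12 and MEF had 1. Chromosome 17 as a whole held 5.38% of the iPSC peaks and 4.32% of the MEF peaks, and the part of this in the Epcam result was not tested.

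Cover of the Epcam window was higher at D3 and D5 than at D1 with both methods. With OySyNyK it was 1.30, 3.11 and 3.76 kb at D1, D3 and D5, in 2, 3 and 4 peaks. With OSNK it was 0.802, 3.66 and 2.26 kb, in 1, 2 and 2 peaks. The OySyNyK values were higher on each later day, and that at D5 was close to the 3.88 kb of iPSC. With a score of at least 100 this order was lost, with 0.678, 2.64 and 2.07 kb over the days of OySyNyK, 0.802, 3.66 and 2.26 kb over those of OSNK, and 2.32 kb in iPSC. The OSNK value was highest at D3, in the list with the widest peaks, whose median width was 911 bp. With every peak set to 500 bp, the OSNK cover was 1 kb at both D3 and D5. With all peaks at their listed widths, the 100 kb on each side moved in the same way as the window. Before the window they had 6.79, 8.32 and 9.45 kb over the days of OySyNyK and 7.59, 14.7 and 10.7 kb over those of OSNK. After it they had 5.07, 8.05 and 9.69 kb with OySyNyK and 5.24, 10.05 and 8.15 kb with OSNK, so the order over the days was not particular to the window. Relative to the mean 25-kb tile of its own list, Epcam stood at 1.03, 2.54 and 3.97 times over the days of OySyNyK, at 0.53, 2.26 and 1.96 times over those of OSNK, and at 5.73 times in iPSC.

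**Figure D1:**
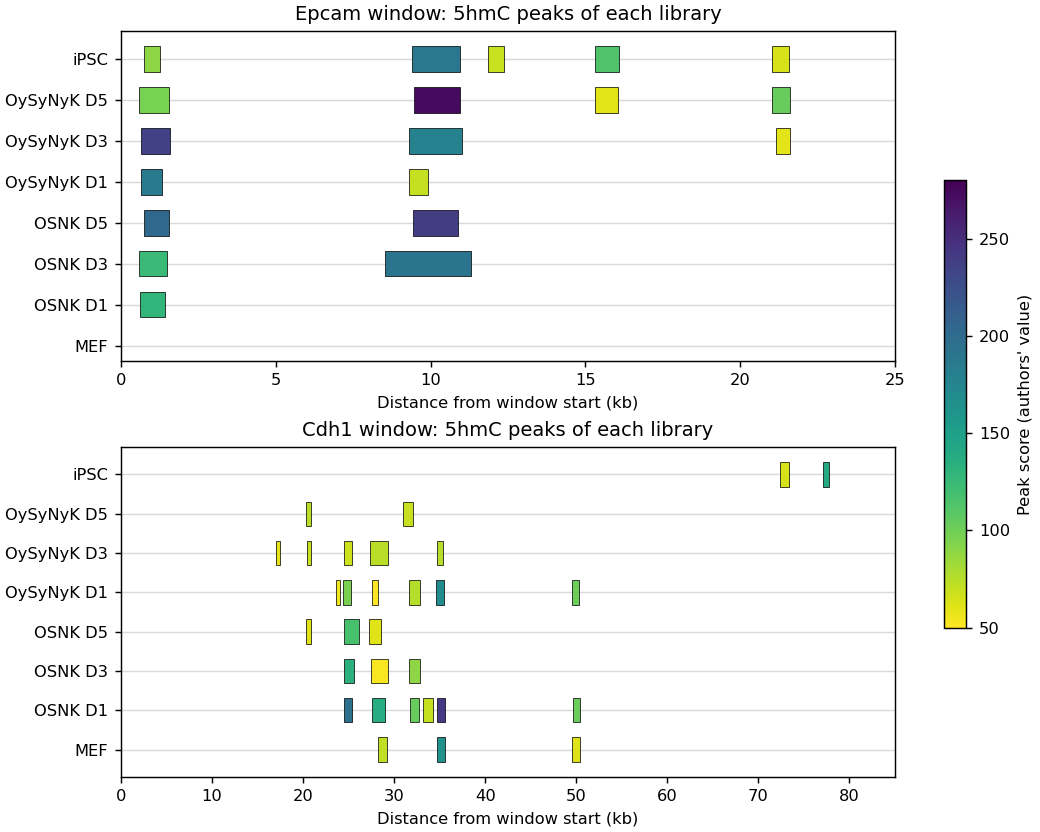
Position of each 5hmC peak as a bar at its true width, by distance from the window start in kb, with 1 library per line and colour for the authors' peak score. The Epcam line of MEF is empty and that of iPSC has 5 peaks, while the Cdh1 peaks of MEF and iPSC lie in different places.

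**Figure D2:**
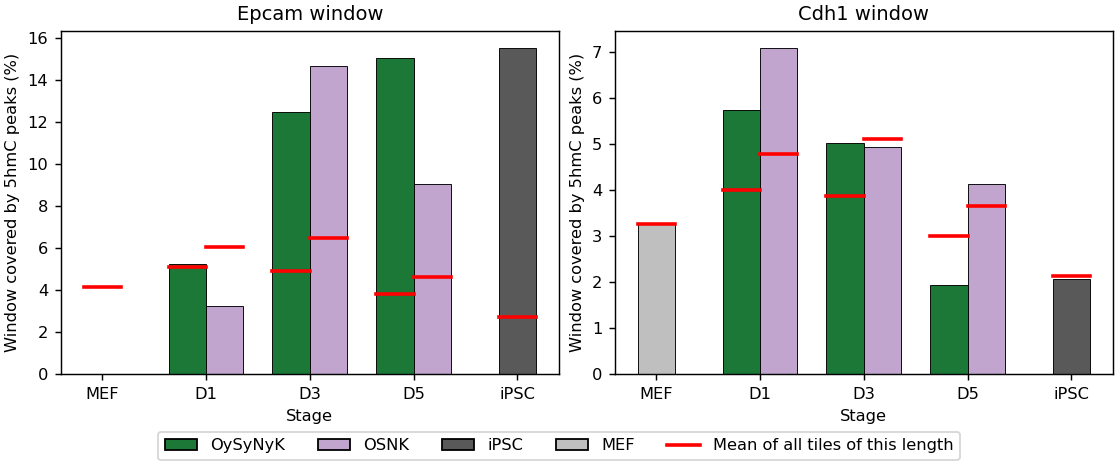
Share of the Epcam window (25 kb) and the Cdh1 window (85 kb) covered by 5hmC peaks, in percent, by stage, with 1 library per bar and no error bars. Red lines give the mean over all tiles of that length in the same library. Epcam cover reached 15.0% at OySyNyK D5 and 15.5% in iPSC, and Cdh1 cover was highest at D1.

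The Epcam peaks of all libraries fell into 5 separate regions, each with a peak in iPSC and none with a peak in MEF. Over the whole list, 78.3% of all iPSC peaks had no MEF peak. The lack of a MEF peak in these regions is not set apart from that share. It is a share of iPSC peaks, and that of merged regions with an iPSC peak and no MEF peak was not computed. Of all 222790 merged regions of the series, 53.5% had a peak of neither, against 0 of 5 at Epcam. The first region (chr17:88030575-88031570) had a peak in all 6 intermediates and in iPSC. Over the days its scores were 186, 236 and 96.9 with OySyNyK and 129, 124 and 203 with OSNK, and 89.4 in iPSC. It was the only Epcam region present at D1 of both methods, and its 7 peaks had their midpoints within 169 bp of each other. All 7 shared a core of 509 bp, which is the whole iPSC peak. Of all 43001 iPSC peaks without a MEF peak, 5.15% were overlapped in all 6 intermediates (exact 95% interval 4.94 to 5.36), as this one was.

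The second region (chr17:88038535-88041305) held the highest-scoring iPSC peak of the locus. With OySyNyK its scores were 70.0, 179 and 273 over the days, and 189 in iPSC. With OSNK it had no peak at D1 and scores of 191 and 239 at D3 and D5. The region was thus weak or not listed at D1 and strong later with both methods. Scores depend on depth, so each peak was also ranked within its list. Of the peaks of the same list, 29.1%, 86.1% and 97.6% scored lower over the days of OySyNyK, 84.0% and 94.5% at D3 and D5 of OSNK, and 95.3% in iPSC. In the first region the ranks followed no such order, at 80.2%, 92.5% and 67.4% over the days of OySyNyK, 60.4%, 67.3% and 91.5% over those of OSNK, and 69.6% in iPSC. The peak of the second region was 626, 1720 and 1483 bp wide over the days of OySyNyK and 1547 bp wide in iPSC. With OSNK it was 2771 bp wide at D3 and 1435 bp at D5.

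The other 3 Epcam regions were found with OySyNyK or in iPSC. The third (chr17:88041864-88042369) had a peak in iPSC only, with a score of 69.0. The fourth (chr17:88045312-88046085) had a score of 60.2 at OySyNyK D5 and of 114 in iPSC. Its peak boundaries in the 2 libraries differed by 11 bp at the start and 33 bp at the end. The fifth (chr17:88051018-88051616) had scores of 59.5 and 103 at OySyNyK D3 and D5 and of 63.8 in iPSC. No OSNK list had a peak in these regions, and over the whole list 72.4% of the iPSC peaks without a MEF peak were likewise overlapped by no OSNK list. Scores of 59.5 and 60.2 lie close to the lower limit of 50, and of the peaks in the same list 19.6% scored lower than that of the fifth region at OySyNyK D3 and 25.4% lower than that of the fourth at OySyNyK D5.

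**Figure D3:**
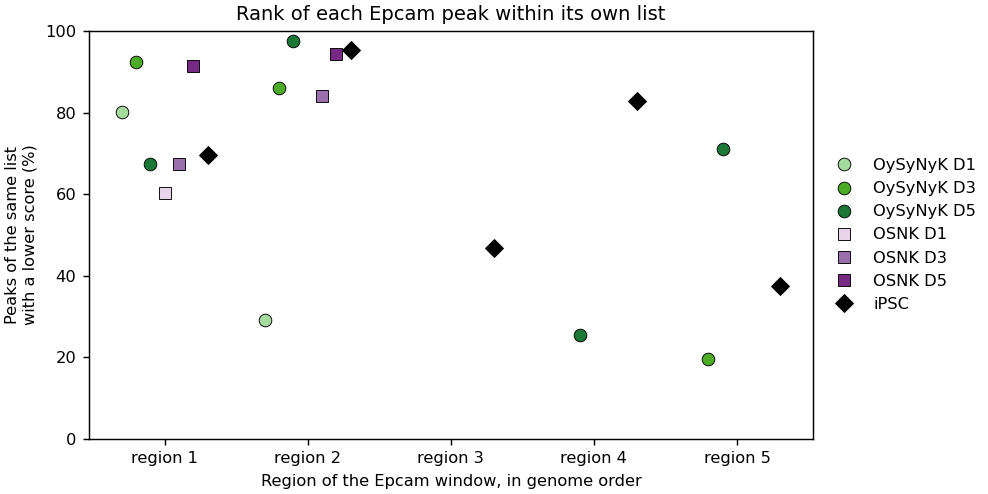
Percent of peaks of the same list that scored lower than each Epcam peak, by region in genome order, with 1 symbol per peak and library. In the second region the OySyNyK peaks stood at 29.1%, 86.1% and 97.6% at D1, D3 and D5.

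The days were then read by how many of the iPSC peaks they had reached. Of the 5 iPSC peaks at Epcam, 2, 3 and 4 were overlapped at D1, D3 and D5 of OySyNyK, and 1, 2 and 2 at those of OSNK. Of the 43001 iPSC peaks without a MEF peak over the whole list, 14.9%, 25.4% and 30.2% were overlapped over the days of OySyNyK, and 11.5%, 18.9% and 22% over those of OSNK. The Epcam counts of 4 of 5 and 2 of 5 at D5 were numerically above these shares, but with 5 peaks they are a description and no more. At least 1 intermediate reached 4 of the 5, against 43.7% over the whole list (exact 95% interval 43.2 to 44.2). The peaks lie in 1 locus and are not independent of each other, and the intervals cover counting error only.

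Between the methods, Epcam cover had no common direction over the days with all peaks at their listed widths. At D1 it was 5.22% with OySyNyK and 3.21% with OSNK, and 10.5% of the 25-kb tiles had at least 2 times more cover with OySyNyK. At D3 it was 12.4% with OySyNyK and 14.6% with OSNK, and 34.5% of tiles had at least 2 times less cover with OySyNyK. At D5 it was 15.0% with OySyNyK and 9.04% with OSNK, and 18.7% of tiles had at least 2 times more cover with OySyNyK. The window itself differed by less than 2 times on each day with all peaks, with ratios of 1.63, 0.85 and 1.67. With every peak set to 500 bp, the limit of 2 times was met at D1 and D5. Cover was then 4.0% with OySyNyK and 2.0% with OSNK at D1, and 8.0% and 4.0% at D5. With only peaks of a score of at least 100, the difference at D5 was -0.756 percentage points in place of 6.01, since 2 peaks then stood with each method. At D1 it was -0.496 in place of 2.01, as it also was with equal numbers of peaks per list, and at D3, with every peak set to 500 bp, it was 2.00 in place of -2.20. The score minimum thus left OySyNyK lower on each day, by -0.496, -4.07 and -0.756 points. Peaks of 500 bp left it higher on each day, by 2.00, 2.00 and 4 points. The OySyNyK peaks without an OSNK peak on the same day had scores between 59.5 and 103.

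Cdh1 had 2 peaks in iPSC and 3 in MEF, and no region held peaks of both. This is near the background, since 78.3% of all iPSC peaks had no MEF peak and 82.6% of all MEF peaks had no iPSC peak. The iPSC peaks covered 1.76 kb or 2.07% of the 85-kb window, and the MEF peaks covered 2.77 kb or 3.26%. This is 0.64 times the MEF cover, and 53.8% of the 85-kb tiles had at least 2 times less cover in iPSC. Relative to the mean tile of its own list the window stood at 0.97 times in iPSC and 1.00 times in MEF. Chromosome 8 held 3.34% of the iPSC peaks and 4.29% of the MEF peaks. In both end states the Cdh1 cover was thus about the mean over the tiles of its list. The median tile was lower, at 0.64% in iPSC and 1.70% in MEF. Of the 22628 tiles of 85 kb that held a peak in any library, 70.1% had less cover than the window in iPSC and 67.4% in MEF. Within 100 kb before the window, iPSC peaks covered 2.95 kb and MEF peaks 11.2 kb, and within 100 kb after it they covered 0.666 kb in iPSC and 0.719 kb in MEF. The difference of -1.19 percentage points in the window was -0.213 with a score of at least 100 and -0.588 with peaks of 500 bp.

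The peaks of iPSC and MEF lay in separate parts of the Cdh1 window. The iPSC peaks were at chr8:109187346-109188411, with a score of 63.6, and at chr8:109192048-109192744, with a score of 140. Of the iPSC list, 37.1% and 89.7% scored lower than these. Their midpoints were 72.9 and 77.4 kb from the window start, and no other library had a peak beyond 50.4 kb. The MEF peaks lay at chr8:109143273-109144248, chr8:109149745-109150622 and chr8:109164515-109165433, with scores of 72.3, 165 and 62.5. Their midpoints were 28.8, 35.2 and 50.0 kb from the window start.

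None of the intermediates reached the iPSC peaks of Cdh1. Both stayed without an overlapping peak in all 6 lists, while 43.7% of such peaks over the whole list had 1 in at least 1 intermediate. With 2 peaks, a count of 0 is a description and no more. At Epcam 4 of 5 were reached, and the difference between the loci was not tested.

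The MEF peaks of Cdh1 were mostly listed at D1 and mostly not at D5. Of the 3 peaks, 2, 2 and 0 were overlapped at D1, D3 and D5 of OySyNyK, and 3, 1 and 1 at those of OSNK. Of the 54329 MEF peaks without an iPSC peak over the whole list, 69.2%, 44.2% and 28.8% were overlapped over the days of OySyNyK, and 74.8%, 47.2% and 36.4% over those of OSNK. With 3 peaks the Cdh1 counts cannot be set apart from these shares. The strongest MEF peak, that at 35.2 kb, had scores of 170 and 74.5 at D1 and D3 of OySyNyK and none at D5. With OSNK it had a score of 241 at D1 and none at D3 or D5, and in MEF its score was 165. The MEF peak at 50.0 kb had a peak at D1 of both methods, with scores of 102 with OySyNyK and 103 with OSNK, and none later.

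**Figure D4:**
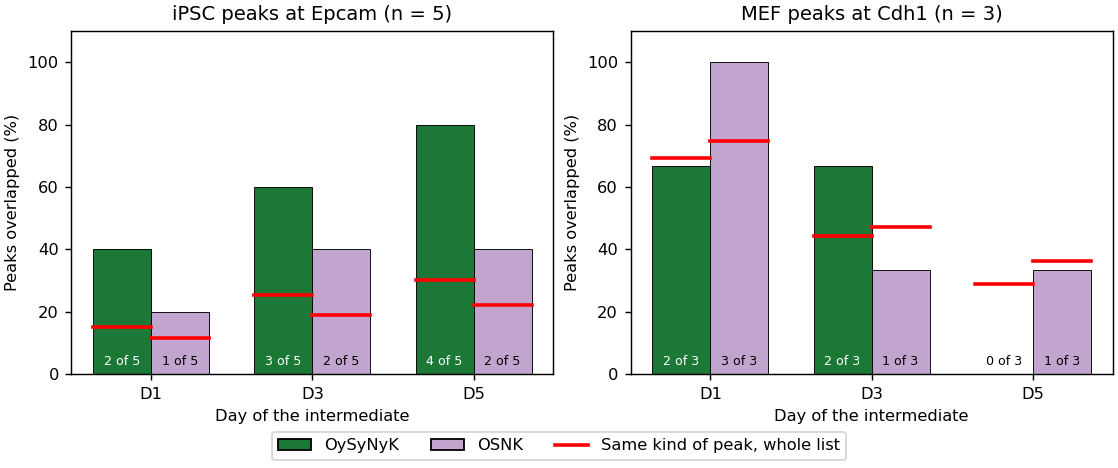
Share of the 5 iPSC peaks at Epcam and of the 3 MEF peaks at Cdh1 that overlapped a peak of each intermediate, in percent, by day and method, with the count at the foot of each bar. Red lines give the share over all iPSC peaks without a MEF peak, or all MEF peaks without an iPSC peak. Epcam stood at 4 of 5 at OySyNyK D5 and 2 of 5 at OSNK D5.

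A large part of the Cdh1 window's peaks belonged to the intermediates alone. The 30 peaks formed 11 regions, of which 2 had an iPSC peak, 3 had a MEF peak and 6 had neither. Over all 222790 merged regions of the series, 53.5% had neither. The Cdh1 share is near this background, while Epcam had 0 of 5. The most shared of the 6 (chr8:109139354-109141112) had a peak in every intermediate except OySyNyK D5. Its scores were 96.1 and 67.9 at D1 and D3 of OySyNyK and 196, 133 and 117 over the days of OSNK. The OSNK scores were the higher ones at D1 and D3, and with both methods each later day had the lower score. Of the peaks of the same list, 50.2% and 32.5% scored lower at D1 and D3 of OySyNyK. With OSNK 76.7%, 70.5% and 73.1% scored lower over the days, so by rank D5 was not below D3.

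Further along the window, chr8:109145932-109147816 had scores of 75.2 and 69.3 at D1 and D5 of OySyNyK and of 104 and 89.4 at D1 and D3 of OSNK. Another region, chr8:109135260-109135887, appeared late, with scores of 69.4 and 73.8 at D3 and D5 of OySyNyK and of 60.99 at OSNK D5. The other 3 had a peak in 1 library each, at OySyNyK D1, OySyNyK D3 or OSNK D1, with scores of 53.8, 58.3 and 70.2. The region at 27.2 to 29.3 kb (chr8:109142209-109144320) was present in MEF and in every intermediate except OySyNyK D5. Its peaks had no base common to all of them, and the one of OySyNyK D1 did not overlap that of MEF.

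Cdh1 cover was highest at D1 and lower on each later day with both methods. With OySyNyK it was 4.89, 4.27 and 1.65 kb at D1, D3 and D5, in 6, 5 and 2 peaks. With OSNK it was 6.04, 4.19 and 3.51 kb, in 6, 3 and 3 peaks. With all peaks, all but OySyNyK D5 lay above the 2.77 kb of MEF. With equal numbers of peaks per list, only OSNK D1 did, at 3.16 kb. The 100 kb before the window also fell, with 11.0, 6.56 and 2.52 kb over the days of OySyNyK and 7.12, 2.29 and 1.60 kb over those of OSNK. The 100 kb after it had 2.01, 0 and 0.5 kb with OySyNyK and 1.28, 0 and 0.408 kb with OSNK. A lower cover after D1 was thus not particular to the window. Relative to the mean 85-kb tile of its own list, the Cdh1 window stood at 1.44, 1.30 and 0.65 times over the days of OySyNyK, at 1.49, 0.97 and 1.13 times over those of OSNK, at 0.97 times in iPSC and at 1.00 times in MEF. With equal numbers of peaks per list, the OySyNyK cover was 2.57 kb at D1, 0 at D3 and 1.65 kb at D5, and the OSNK cover 3.16, 2.30 and 1.59 kb, so the order over the days did not hold with OySyNyK. With a score of at least 100 the OSNK cover was 4.96, 1.11 and 1.59 kb, and with peaks of 500 bp it was 3, 1.5 and 1.5 kb, so the order did not hold with OSNK in these settings either.

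Between the methods, the 2-fold limit was passed at D5 with all peaks or a score of at least 100, and not in the other settings. At D1 it was passed with a score of at least 100 only, and at D3 with that or with equal numbers of peaks. Cdh1 cover at D5 was 1.94% with OySyNyK and 4.13% with OSNK, a ratio of 0.47, and 35.8% of the 85-kb tiles had at least 2 times less cover with OySyNyK. At D1 it was 5.75% with OySyNyK and 7.10% with OSNK, and 29.3% of tiles had at least 2 times less with OySyNyK. A score minimum of 100 left 1.96% with OySyNyK and 5.84% with OSNK at D1, a difference of -3.88 percentage points in place of -1.36. At D3 it was 5.02% with OySyNyK and 4.93% with OSNK, and 11.3% of tiles had at least 2 times more with OySyNyK. With equal numbers of peaks the D5 difference was 0.061 percentage points in place of -2.20. At D3 it was -2.70 in place of 0.089, and a score minimum of 100 gave -1.30, with no OySyNyK peak left. The methods shared 5 of the 7 regions present at D1 in either, 2 of 6 at D3 and 1 of 4 at D5. At Epcam they shared 1 of 2, 2 of 3 and 2 of 4. Of all merged regions with a peak of either method, 52.8%, 42.9% and 36.4% had a peak of both at D1, D3 and D5, and these few regions are not set apart from that.

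For each window, the tiles of the same length with the most similar cover over the 8 libraries were looked up. At Epcam, 19330 tiles with at least 50% of its mean cover were compared. The closest was chr17:27225001-27250000, with a Pearson's r of 0.99 over 8 libraries. Its cover over the days was 20.6%, 34.0% and 47.2% with OySyNyK and 13.4%, 45.1% and 33.4% with OSNK, and it was 48.1% in iPSC and 3.81% in MEF. The next were chr10:127550001-127575000 and chr4:55075001-55100000, both with an r of 0.98. The last of these, like Epcam, was listed without a peak in MEF and reached 12.8% at OySyNyK D5 and 13.9% in iPSC. At Cdh1, 10730 tiles were compared and the 3 closest lay on chromosomes 18, 6 and 12, with r between 0.97 and 0.99. These libraries differ in peak number and width, which all tiles share, and the tiles were not assigned to genes.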

How the data were processed

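5hmC-enriched DNA of 8 mouse libraries, 1 per group, was analysed from the deposited peak lists, 1 per library. Samples were grouped by their titles. Per the submitters' processing notes, Bowtie and MACS were the tools, and the builds listed there, hg18 and NCBI36, are human. No tool version, setting or control library is stated there. Chromosome names in the lists run from 1 to 19 plus X, which is mouse, and the windows were set in mm9. Each peak has a score as deposited by the authors, which is not scaled between libraries. Positions are counted from 1.

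Peaks overlapping a window by at least 1 bp were taken, clipped to the window for covered length, and merged over libraries into regions. Background values are from all peaks, or from tiles of the window's length along every chromosome. A tile was called at a 2-fold difference in cover. Intervals are exact (Clopper-Pearson) at 95%. No comparison has a test, since no group has a replicate and depth is unknown. Python 3.11.15, numpy 2.4.6, pandas 2.3.3, scipy 1.17.1 and matplotlib 3.10.9 were used. Interval counts were tested on simulated data and checked against bedtools 2.31.1. Promoter letters came from RefSeq's GRCm38.p6 table, which was matched by symbol for Epcam.

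The named genes are those of the windows, and the tiles named are the 3 most correlated per window with at least 50% of the window's mean cover. Members and lists were chosen with earlier results of these data known. Alternatives were a score minimum of 100, lists cut to equal numbers (54938 peaks by score), peaks of 500 bp, windows widened by 10 kb, merging within 1 kb and a shared length of at least 50%.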

Additional observations from a re-analysis of the deposited data

Results flagged for a closer look

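At D5 the Cdh1 cover differed from MEF in opposite directions with the methods, by -1.33 percentage points with OySyNyK and by 0.868 with OSNK, which is -2.2 points between them. Each value rests on 1 library and the same MEF library, and the difference was not tested. With equal numbers of peaks the Cdh1 window had 1.65 kb at OySyNyK D5, 1.59 kb at OSNK D5 and 2.77 kb in MEF, so that both methods lay below MEF.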

How the results depend on the processing

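Differences in cover are in percentage points of the window, iPSC minus MEF or OySyNyK minus OSNK. No region held peaks of both iPSC and MEF at either gene under any of the 5 settings tried for this count. With a score of at least 100, iPSC minus MEF was 9.28 at Epcam and -0.213 at Cdh1. The method differences at D1, D3 and D5 were then -0.496, -4.07 and -0.756 at Epcam, with the direction changed at D1 and D5, and -3.88, -1.30 and -1.87 at Cdh1, with the direction changed at D3. With equal numbers of peaks the iPSC minus MEF values stayed as they were, and the method differences were -0.496 and -4.07 at D1 and D3 of Epcam, and -0.70, -2.70 and 0.061 at D1, D3 and D5 of Cdh1. With peaks of 500 bp, iPSC minus MEF was 10.0 at Epcam and -0.588 at Cdh1, and the method differences were 2.00 and 4 at D3 and D5 of Epcam, and 0, 1.18 and -0.588 at D1, D3 and D5 of Cdh1. With windows widened by 10 kb, iPSC minus MEF was 11.7 at Epcam, and the method differences were 0.596, -1.59 and 1.90 at Epcam and -0.626 and -1.44 at D1 and D5 of Cdh1. The direction of iPSC minus MEF was thus kept at both genes under all 4 settings, while the method differences changed direction at Cdh1 D3 and D5 and at every Epcam day under at least 1 of them. The score minimum removes peaks and the fixed width removes differences in width by construction; other causes were not tested. No paired analysis was possible because the groups share only replicate number 1. The methods could be paired by day, but an exact two-sided sign-flip test over 3 days cannot go below p = 0.25 and was not run. Unknown depth limits every absent peak to a statement about the list.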
